A study of Mus musculus with 21 samples.

Results

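The step from day 2 to day 3 of differentiation without ascorbic acid was followed in embryoid bodies grown from the mouse embryonic stem cell line CGR8. Embryoid bodies are aggregates in which stem cells leave pluripotency and begin to form the germ layers. The comparison sets 3 day 3 arrays against 3 day 2 arrays, 6 of the 21 arrays of the series, chosen by the labels for day and for the absence of treatment. Both groups came from hanging drops of 500 cells in 25 µL, and 100 ng of total RNA per sample was labelled for an Affymetrix mouse genome array. For the culture medium, the labels give iMDM (20%) at days 2, 3 and 5 and GMEM at day 0. The other arrays are 3 of undifferentiated cells at day 0, 3 untreated at day 5, and 3 at each of days 2, 3 and 5 with 100 µM ascorbic acid (vitamin C). Day 2 and day 3 samples differ in more than age. The aggregates stayed in drops until day 2 and were then moved to a horizontally agitated culture, so time and agitation cannot be told apart. All samples come from 1 cell line, and the submitters carried on only with differentiations in which ascorbic acid later increased beating, so the cultures are a selected set. The labels name the replicates biological without giving dates or batches. The p-values measure the spread between samples of a group, taken as 1 value per gene from all 21 arrays unless stated.

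In the embryo, the epiblast passes from a naive to a primed pluripotent state and then forms the primitive streak, through which cells become mesoderm and endoderm. Nodal, a ligand of the TGF-beta family, and Wnt ligands start the streak. FGF signals let cells leave it, and BMP signals pattern its posterior part. Embryoid bodies pass through a related sequence without the geometry of the embryo, and streak genes in them are usually short-lived.

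All signals are given on the log2 scale, where 1 unit is a doubling, and each ± after a difference is its standard error in limma, with n = 3 on either day. The 25th percentile of the signals lay between 4.77 and 4.92 depending on the array, and a gene starting below it may have changed by more than its fold says. Arrays of a day correlated at 0.981 to 0.995 over all genes, and the array medians of the series were 6.05 to 6.19. The signal at the 3′ end minus that at the 5′ end of Actb is a sign of RNA integrity. It was 0.94 to 1.40 at day 2 and 0.96 to 1.05 at day 3, highest in day 2 replicate 2. The same value for Gapdh was 0.36, 0.63 and 0.17 at day 2 and 0.16, 0.13 and 0.11 at day 3. For Gapdh every day 2 array was thus above every day 3 array, and the part of this in the results was not tested. As the samples are bulk RNA, more cells of a type and more RNA per cell cannot be told apart in any value below. Replicate 3 of each day stood apart from the others, and results that rest on it are given with the values of every array. T (Tbxt), the usual streak marker, was not analysed here.

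Between day 2 and day 3, 7 of 24 primitive streak genes, 14 of 46 Wnt pathway genes and Nanog rose. Nr0b1, Fgf4, Dppa2, the DNA methyltransferase gene Dnmt3a and the cofactor gene Dnmt3l fell, although other probe sets of Dnmt3a disagreed in direction. Of 18193 genes, 885 rose (4.86%) and 172 fell (0.945%) at an adjusted p under 0.05 (limma), and 3691 (20.3%) had an unadjusted p under 0.05. Differences over 1 on the log2 scale were called for 192 genes that rose (1.06%) and 42 that fell (0.231%). Differences over 2 were called for 21 genes that rose and 5 that fell. The median difference was 0.73 among the genes that rose and -0.62 among those that fell, beside -0.03 over all genes. The excess of rises depended on scaling. After renewed quantile normalisation 573 genes rose and 234 fell, and after centring each array on its median 1004 rose and 105 fell, with median differences of -0.04 and 0.02 over all genes. Single arrays also moved the counts: against 1057 calls (5.81%) with all arrays, omitting replicate 2 of day 3 left 258, omitting replicate 1 of day 3 left 435 and omitting replicate 3 of day 2 left 560.

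**Figure D1:**
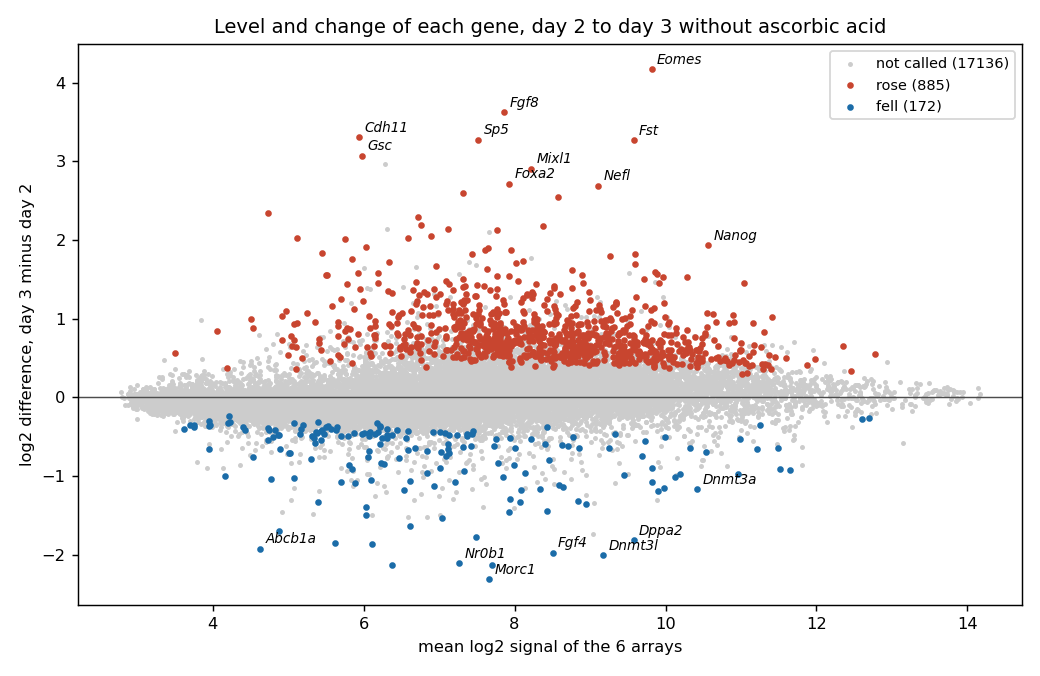
Each point is a gene, with its mean log2 signal over the 6 arrays on the horizontal axis and its log2 difference, day 3 minus day 2, on the vertical axis. Red points are the 885 genes that rose, blue points the 172 that fell and grey points the rest. Eomes lies highest at 4.17 and Morc1 lowest at -2.31.

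The largest rise was that of Eomes, a T-box transcription factor needed for mesoderm and endoderm. Its log2 signal was 7.75, 8.44 and 7.01 in day 2 replicates 1 to 3 and 12.49, 12.36 and 10.85 at day 3. The difference was 4.17 ± 0.43 (adjusted p = 3.63e-05, limma), an 18.0-fold change. All 3 day 3 arrays were higher than every day 2 array by over 2 units, with replicate 3 the lowest on both days.

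Fgf8, the FGF ligand that cells need to leave the streak, read 6.06, 5.89 and 6.21 at day 2 and 10.13, 10.34 and 8.55 at day 3. This is 12.3-fold (3.62 ± 0.36, adjusted p = 3.09e-05, limma). Day 3 replicate 3 again held the lowest day 3 value and still exceeded all day 2 values. Fst, which encodes the activin and BMP antagonist follistatin, behaved alike, at 8.06, 8.16 and 7.61 at day 2 and 11.65, 11.46 and 10.52 at day 3 (3.27 ± 0.48, adjusted p = 0.000758, limma). The calls of Eomes, Fgf8 and Fst held in all 6 fits that left out 1 of the 6 arrays.

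A second set of large rises was carried by 2 of the 3 day 3 arrays. Mixl1, a homeobox gene of the streak, read 6.90, 7.01 and 6.38 at day 2 and 10.93, 10.86 and 7.21 at day 3 (2.90 ± 0.79, adjusted p = 0.0348, limma). Gsc (goosecoid), a homeobox gene of the anterior streak, read 4.45, 4.41 and 4.49 and then 8.59, 8.75 and 5.22 (3.07 ± 0.71, adjusted p = 0.014, limma). Foxa2, a forkhead factor of the anterior streak and endoderm, read 6.75, 6.64 and 6.31 and then 10.34, 10.61 and 6.90 (2.72 ± 0.77, adjusted p = 0.0429, limma). In each of the 3 genes, replicates 1 and 2 rose to a high level and replicate 3 lay less than 1 unit above the highest day 2 array. Cdh11, which encodes a cadherin of mesenchymal cells, had the same form, with 4.45, 4.13 and 4.29 at day 2 and 8.86, 8.85 and 5.07 at day 3 (3.30 ± 0.81, adjusted p = 0.0202, limma). A second probe set of Cdh11 differed by 0.77. Mixl1 and Foxa2 were called in 1 of the 6 fits with 1 array left out (that without day 3 replicate 3, with the highest adjusted p among the others 0.215 and 0.261, limma), Cdh11 in 2 and Gsc in 4.

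**Figure D2:**
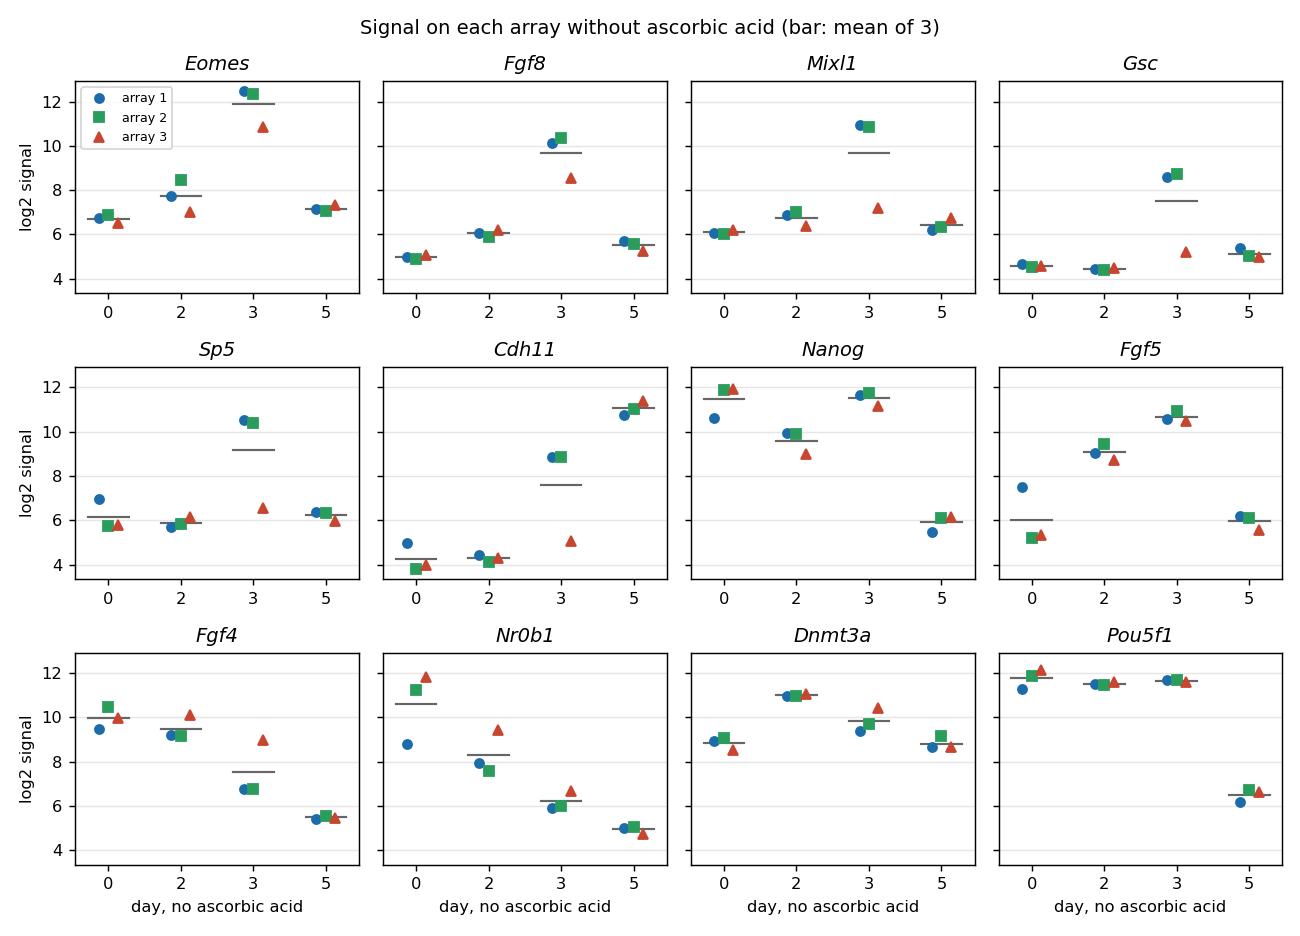
Log2 signal (vertical axis) of 12 genes on every array without ascorbic acid at days 0, 2, 3 and 5 (horizontal axis), with circles, squares and triangles for replicates 1, 2 and 3 and a bar at the mean of 3. Eomes, Fgf8, Mixl1, Gsc and Sp5 stand high at day 3 and low on the other days, with the triangle of day 3 below the other symbols, while Cdh11 stays high at day 5 (mean 11.04) and Pou5f1 is level from day 0 to day 3.

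By function, the Nodal pathway list had 26 measured members, of which 7 rose and 0 fell, with a median difference of 0.35 (all genes: 4.86% rose, median -0.03). Eomes, Gsc, Mixl1 and Foxa2 are targets in this list, and 4 of its 5 measured targets rose. These 4 are also counted among the streak genes. The fifth, the LIM homeobox gene Lhx1, read 4.96, 4.68 and 4.77 at day 2 and 8.93, 9.83 and 4.56 at day 3. Its difference of 2.97 ± 0.93 missed the threshold (adjusted p = 0.067, limma), and the days overlap as replicate 3 lay just below the day 2 arrays. Of the Nodal list, 3 genes rose when replicate 2 of day 3 was omitted, and 4 when replicate 1 of day 3 or replicate 3 of day 2 was.

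Of the ligands, receptors and transducers, 1 of 4 receptors and 1 of 4 transducers rose, and 0 of 4 ligands was called. Nodal itself was already high at day 2, at 10.24, 10.32 and 9.88, and read 10.28, 10.46 and 10.75 at day 3 (0.35 ± 0.21, adjusted p = 0.359, limma). Tdgf1, the co-receptor Cripto, differed by 0.18 ± 0.25 and the transcription partner Foxh1 by 0.19 ± 0.17, both without a call. Smad4, the shared Smad of the TGF-beta family, rose by 0.68 ± 0.13 and Acvr2b, a type II receptor, by 0.57 ± 0.14 (adjusted p = 0.00535 and 0.0192, limma). The feedback inhibitors did not move one way. Lefty1 differed by -0.88 ± 0.37 and Lefty2 by 0.35 ± 0.26, neither called, while Fst rose as given above. Cer1, the secreted inhibitor of the anterior endoderm, read 6.90, 7.27 and 5.96 at day 3 against 6.26 to 6.50 at day 2 and was not called (adjusted p = 0.511, limma), with replicates 1 and 2 above and replicate 3 below the day 2 arrays, while its second probe set differed by 1.43.

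Of 46 Wnt pathway genes 14 rose and 0 fell (all genes: 4.86% and 0.945%), with a median difference of 0.36. Rises were spread over all roles in the pathway, from ligands to target genes. Among the ligands, Wnt8a went from 6.13, 6.34 and 5.44 to 7.68, 7.67 and 6.67 (1.37 ± 0.28, adjusted p = 0.00699, limma). Wnt3, the ligand that starts the streak in the mouse, went from 4.19, 4.45 and 4.62 to 5.55, 5.75 and 5.25 (1.10 ± 0.30, adjusted p = 0.0381, limma), starting below the 25th percentile of signals. Wnt5b rose as well (0.78 ± 0.22), and the other 6 measured ligands were not called, Wnt3a differing by -0.24 ± 0.13. Wnt3 and Wnt5b kept their calls in 1 of 6 fits with an array left out and Wnt8a in 5 of 6. Over the whole list the count of rises was 6 with replicate 2 of day 3 omitted, 8 with replicate 1 of day 3 omitted and 9 without any single day 2 array.

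Of the other roles, 2 of 4 amplifiers, 2 of 11 receptors and 2 of 10 inhibitors rose. Rspo3, a secreted enhancer of Wnt signalling, read 4.95, 5.16 and 5.12 at day 2 and 7.60, 7.58 and 5.77 at day 3 (1.91 ± 0.38, adjusted p = 0.00602, limma), although its second probe set differed by 0.03. The receptor genes Fzd2 (1.16 ± 0.20) and Fzd3 (0.96 ± 0.18) rose, as did Lgr5 (0.65 ± 0.19), the receptor of R-spondins. Frzb, a secreted Wnt antagonist, went from 5.98, 5.54 and 5.22 to 8.28, 8.30 and 6.25 (2.03 ± 0.59, adjusted p = 0.0458, limma), and Znrf3, a ligase that removes Wnt receptors, rose by 0.73 ± 0.14. Other probe sets of Lgr5, Fzd3 and Znrf3 went down to -0.08, -0.09 and -0.17. Dkk1, an antagonist that binds the co-receptor, read 6.44, 6.67 and 5.30 against 5.12 to 5.70 and was not called (adjusted p = 0.192, limma). Tcf7l2, a DNA-binding partner of beta-catenin, rose by 1.45 ± 0.26 from 5.60, 5.35 and 5.47 to 7.04, 7.13 and 6.59.

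Of the 8 measured Wnt target genes, 4 rose: Sp5, Sp8, Axin2 and Amotl2. Sp5, a zinc-finger factor that acts on Wnt target genes, read 5.69, 5.81 and 6.14 at day 2 and 10.51, 10.39 and 6.56 at day 3 (3.27 ± 0.84, adjusted p = 0.0256, limma). Its day 3 replicate 3 lay within 1 unit of the day 2 arrays, and the call held in 1 of 6 fits with an array left out, that without day 3 replicate 3. Axin2, a negative regulator that is a general readout of Wnt activity, rose on all 3 arrays, from 7.91, 7.94 and 7.58 to 9.38, 9.28 and 8.73 (1.32 ± 0.27, adjusted p = 0.00615, limma). Sp8, a relative of Sp5, rose from 5.07, 4.83 and 4.35 to 7.22, 6.82 and 6.26 (2.02 ± 0.36, adjusted p = 0.00316, limma). Axin2 and Sp8 were called in all 6 such fits, and a second probe set of Axin2 differed by 0.41.

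TCF/LEF factors bind DNA at sites close to CTTTGAT and CTTTGTT, and both words were searched on both strands of RefSeq promoters (GRCm38.p6), each running from 250 bases before to 50 after a transcription start. One or the other was found in 1244 of 14452 genes with a promoter (8.61%). A match was found in 14 of 149 genes that rose by over 1 (9.40%) and in 5 of 33 that fell by over 1 (15.2%). Of the Wnt genes that rose, 8 had a promoter in the table. A match was held by 5 of these (Wnt3, Wnt5b, Tcf7l2, Sp5 and Amotl2) and by none of Axin2, Frzb and Sp8. Wnt5b and Sp8 had 3 promoters searched, Tcf7l2 2 and the others 1, so their chances of a match differ. Sp5 and Axin2 are shown as a pair because both are Wnt targets that rose, 1 with and 1 without the words. The 250 bases before each start are given 5′ to 3′ on the plus strand, for Sp5 at chr2:70474673-70474922 and for Axin2 at chr11:108920099-108920348, with matches in capitals.
Sp5: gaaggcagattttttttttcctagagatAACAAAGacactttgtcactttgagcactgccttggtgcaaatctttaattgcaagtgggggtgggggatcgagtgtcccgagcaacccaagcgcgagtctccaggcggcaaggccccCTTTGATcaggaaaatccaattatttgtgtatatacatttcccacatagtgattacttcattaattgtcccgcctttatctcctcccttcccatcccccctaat
Axin2: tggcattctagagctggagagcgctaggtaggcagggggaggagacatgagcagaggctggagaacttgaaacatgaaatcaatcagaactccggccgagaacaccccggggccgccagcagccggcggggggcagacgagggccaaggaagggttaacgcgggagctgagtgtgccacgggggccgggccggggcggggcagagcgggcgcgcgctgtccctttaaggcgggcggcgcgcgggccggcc
The first capital run in Sp5 begins 222 bases before the start and reads CTTTGTT on the minus strand. The other begins 104 bases before the start and reads CTTTGAT on the plus strand. The 2 stretches also differ in base composition, with 6 CpG dinucleotides for Sp5 and 24 for Axin2. A match is a sequence description only, and its absence here does not concern sites outside this window. The words AATCCACA, bound by FOXH1, and AGGTGTGA, bound by T-box factors, were found in 1 and 2 of the 149 promoters of genes that rose, beside 0.830% and 1.29% of all genes. CpG counts per promoter had a median of 22 in genes that rose by over 1, 10 in the 33 that fell by over 1 and 17 in all genes.

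In the FGF pathway, the ligands changed in both directions. Of 24 measured members, 4 rose and 1 fell (all genes: 4.86% and 0.945%), and the median difference was 0.00. Fgf4, the ligand of naive and early epiblast cells, fell from 9.20, 9.18 and 10.09 to 6.78, 6.78 and 8.99, a difference of -1.97 ± 0.49 (adjusted p = 0.0222, limma). Fgf5, the ligand of the primed epiblast, rose from 9.02, 9.46 and 8.72 to 10.55, 10.95 and 10.46 (1.59 ± 0.42, adjusted p = 0.0298, limma). Fgf8 rose as given above, and no level of a ligand is set against that of another, since probes differ in brightness. Day 3 replicate 3 kept the most Fgf4 and had the least Fgf8, while its Fgf5 signal was close to that of the others. The call of Fgf5 held in 2 of 6 fits with an array omitted and was lost after quantile normalisation (adjusted p = 0.0664, limma) and with robust variance estimates (0.0554). That of Fgf4 held in 3 of 6 and was lost with the spread from these 6 arrays alone (adjusted p = 0.0502, limma). The feedback inhibitors Il17rd (1.27 ± 0.20) and Dusp6 (0.81 ± 0.23) rose. The other feedback genes were not called, with Spry4 at -1.16 ± 0.42, and the 4 receptor genes and Fgfrl1 differed by -0.37 to 0.61 without a call.

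Of 26 BMP pathway genes 8 rose and 0 fell (all genes: 4.86% and 0.945%), with a median difference of 0.16. The rises lay in receptors, transducers, targets and 1 modulator, while 0 of 6 ligands was called. Smad1, a transducer of BMP signals, rose from 8.59, 8.39 and 8.16 to 9.78, 9.93 and 9.13 (1.23 ± 0.20, adjusted p = 0.00167, limma), and its partner Smad5 rose by 0.81 ± 0.21. The receptor genes Bmpr1a (0.68 ± 0.12), Bmpr2 (0.84 ± 0.23) and Acvr1 (0.70 ± 0.18) rose, as did the BMP modulator Twsg1 (0.73 ± 0.16). Among the targets, Id1 rose by 1.09 ± 0.23 and Msx1 by 1.33 ± 0.34, the latter with a second probe set that differed by -0.03. Other probe sets of Bmpr1a, Twsg1, Acvr1 and Bmpr2 went down to -0.11, -0.23, -0.01 and 0.03. Among the ligands, Bmp4 differed by -0.24 ± 0.55, and Bmp2 read 5.45, 5.62 and 3.94 at day 3 against 4.01 to 4.45 at day 2, high in replicates 1 and 2 alone (adjusted p = 0.245, limma). Of 21 Notch pathway genes 1 rose, the target Hes1 (1.22 ± 0.27), and 0 fell. The rises among BMP genes numbered 3 when replicate 3 of day 2 or replicate 1 or 2 of day 3 was omitted, and 5 when replicate 2 of day 2 was.

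**Figure D3:**
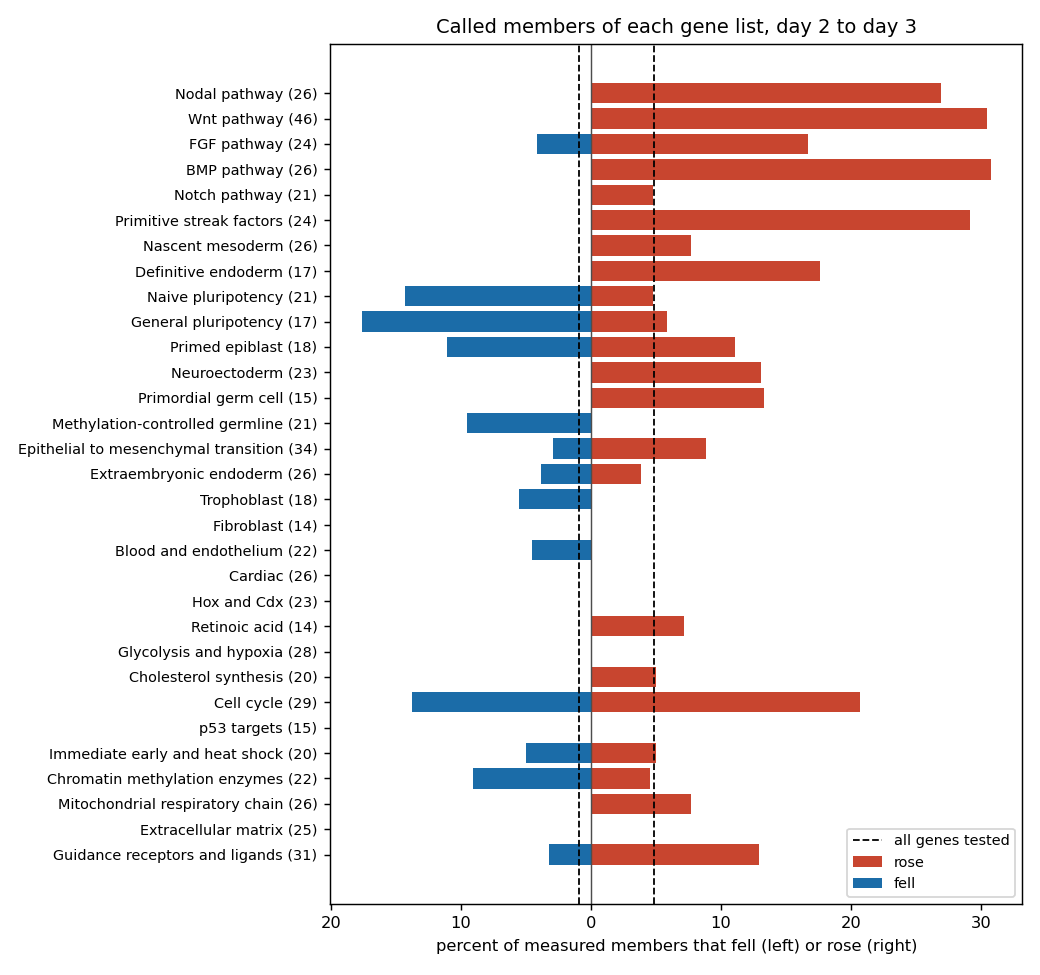
Percent of the measured members of each of 31 gene lists that rose (red, right) or fell (blue, left) from day 2 to day 3, with the number measured in brackets. Dashed lines mark the 4.86% of all genes that rose and the 0.945% that fell. The BMP, Wnt, primitive streak and Nodal lists have the longest red bars, and general and naive pluripotency the longest blue bars.

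Of 24 primitive streak genes, 7 rose and 0 fell (all genes: 4.86% and 0.945%), with a median difference of 0.58. The 7 were Eomes, Fgf8, Gsc, Mixl1, Foxa2, Evx1 and Wnt3. The count was 2 with replicate 1 or 2 of day 3 omitted, 4 with any single day 2 array omitted and 10 with replicate 3 of day 3 omitted. Evx1, a homeobox gene of the posterior streak, rose from 6.20, 6.36 and 6.09 to 7.77, 7.45 and 6.88 (1.15 ± 0.24, adjusted p = 0.00787, limma). Mesp1, a factor of the earliest cardiac mesoderm, read 8.05, 8.18 and 6.95 at day 3 against 6.28 to 7.01 at day 2 and was not called (1.11 ± 0.36, adjusted p = 0.08, limma). Cdx2, Tbx6 and Msgn1, which follow in the posterior streak and in paraxial mesoderm, were not called, and Tbx6 and Msgn1 differed by -0.16 ± 0.16 and -0.08 ± 0.17. Otx2, an anterior factor also of the primed epiblast, went from 9.31, 9.53 and 9.55 to 10.45, 10.51 and 10.20. Its days do not overlap, yet it was not called (0.92 ± 0.74, adjusted p = 0.512, limma), in the fit that takes 1 spread per gene from all 21 arrays. With the spread from these 6 arrays alone the adjusted p was 0.00596 (limma).

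Of 26 nascent mesoderm genes 2 rose, Rspo3 and Frzb, and 0 fell, and the median was 0.03. The share that rose is near the 4.86% of all genes. Several members were high in 2 of the 3 day 3 arrays. The apelin receptor gene Aplnr read 5.39, 5.28 and 5.04 at day 2 and 8.30, 8.71 and 5.13 at day 3 (2.14 ± 0.76, adjusted p = 0.107, limma). Pdgfra, a receptor of paraxial and cardiac mesoderm, read 5.18, 5.64 and 5.24 and then 7.33, 7.22 and 5.68 (1.39 ± 0.42, adjusted p = 0.0546, limma), and Cyp26a1, which breaks down retinoic acid, 7.37, 7.43 and 7.11 and then 9.46, 9.38 and 6.91 (1.28 ± 0.52, adjusted p = 0.162, limma). In all 3 genes replicate 3 of day 3 lay at or near the day 2 level. Kdr, the VEGF receptor of blood and vessel precursors, differed by -0.01 ± 0.21. Of the later lineages, 0 of 26 cardiac, 0 of 23 Hox and Cdx and 0 of 14 fibroblast genes were called, and 1 of 22 blood and endothelial genes fell (Gata1, -0.48 ± 0.14).

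Of 17 definitive endoderm genes 3 rose and 0 fell (all genes: 4.86% and 0.945%), with a median of 0.09. Besides Gsc and Foxa2 these were Trh, which encodes thyrotropin-releasing hormone and went from 9.20, 9.28 and 9.09 to 10.68, 10.85 and 10.39 (1.45 ± 0.27, adjusted p = 0.00403, limma). All 3 day 3 arrays of Trh exceeded every day 2 array by over 1 unit. Sox17, the defining endoderm factor, differed by 0.22 ± 0.17 and Hhex by 0.38 ± 0.26, neither called, and a second probe set of Sox17 differed by 0.87, also without a call. Markers of other cell types that such cultures can hold were followed by whole lists. The mean log2 signal over 26 extraembryonic endoderm genes was 7.01 to 7.11 at day 2 and 7.07 to 7.26 at day 3, over 18 trophoblast genes 6.62 to 6.77 and 6.58 to 6.88, and over 14 fibroblast genes 6.11 to 6.21 and 6.07 to 6.11. Of the extraembryonic endoderm genes 1 rose (Fst) and 1 fell (Cubn), and of the trophoblast genes 1 fell (Cdkn1c). The defining extraembryonic factors Gata4 and Sox7 differed by -0.14 and -0.34 and Gata6 by 0.64, without a call, although Gata6 was called without day 3 replicate 3 (0.91, adjusted p = 0.027, limma). Other probe sets gave -0.35 for Gata4, 0.27 for Sox7 and -0.19 to 0.32 for Gata6, and the part of such cells in the results was not tested. Over 23 neuroectoderm genes it was 6.36 to 6.38 and then 6.43 to 6.50. In that list Fabp7 (1.44 ± 0.20), Map2 (0.95 ± 0.23) and Sox11 (0.86 ± 0.22) rose, while Sox1 differed by -0.10 ± 0.12 and Pax6 by -0.10 ± 0.12. A second probe set of Sox1 differed by -0.96, also without a call. The other 3 probe sets of Map2 differed by -0.18 to -0.05.

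Pluripotency genes were called in both directions. Of 21 naive genes, 1 rose and 3 fell (all genes: 4.86% and 0.945%), with a median of -0.43. Of 17 general pluripotency genes 1 rose and 3 fell, with a median of -0.13. In 12 of the 21 naive genes every day 3 array lay below every day 2 array, beside 11.7% of all genes. The mean over the naive list was 7.51 to 8.00 on the day 2 arrays and 7.21 to 7.24 on the day 3 arrays, without overlap, and over the general list 9.71 to 10.16 and 9.49 to 9.89. Nanog, a core pluripotency factor that also marks the early posterior epiblast, was 9.92, 9.87 and 8.99 at day 2 and 11.67, 11.76 and 11.16 at day 3. It rose 3.83-fold (1.94 ± 0.35, adjusted p = 0.00327, limma) to a level near its day 0 mean of 11.48, and all 3 day 3 arrays exceeded all day 2 arrays. Pou5f1, which encodes OCT4, stayed at 11.44 to 11.60 and 11.58 to 11.69 (0.14 ± 0.25, adjusted p = 0.789, limma), and the days overlap. Sall4, a zinc-finger factor of the same network, rose by 0.64 ± 0.14, and Sox2 differed by -0.51 ± 0.43 (adjusted p = 0.544, limma, and 0.0325 with the spread from these 6 arrays alone).

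Nr0b1, an orphan nuclear receptor of naive cells, fell from 7.94, 7.56 and 9.45 to 5.93, 6.02 and 6.67 (-2.11 ± 0.53, adjusted p = 0.0231, limma). Zfp42 (Rex1), a zinc-finger marker of the naive state, fell from 9.55, 9.16 and 9.80 to 7.95, 8.33 and 8.28 (-1.32 ± 0.30, adjusted p = 0.0122, limma). Dppa2, which protects developmental promoters from methylation, fell from 10.35, 10.35 and 10.75 to 7.92, 8.17 and 9.92 (-1.81 ± 0.43, adjusted p = 0.0161, limma). Replicate 3 held the highest value of each of Nr0b1, Fgf4 and Dppa2 on both days, and the days still do not overlap. Klf2, Klf4, Esrrb and Tfcp2l1, core naive factors, differed by -0.59 to -0.04 without a call. The 3 falls among naive genes numbered 0 when replicate 3 of day 2 or replicate 1 of day 3 was omitted and 1 when replicate 2 of day 3 was, and those of general pluripotency 1 in each case. Trim28, a corepressor of retroelements, fell by 0.26 on the log2 scale (SE 0.07), and that call held in 0 of 6 fits with an array left out.

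The de novo DNA methylation machinery changed unevenly. Dnmt3l, the cofactor of the de novo methyltransferases, fell from 10.02, 9.20 and 11.32 to 7.68, 8.12 and 8.71 (-2.01 ± 0.42, adjusted p = 0.00728, limma). Dnmt3a fell from 10.97, 10.97 and 11.07 to 9.38, 9.71 and 10.41 (-1.17 ± 0.24, adjusted p = 0.00637, limma), although its 4 other probe sets ranged from -1.04 to 0.89. Dnmt3b, the other de novo enzyme, stayed at 12.68 to 13.09 and 12.84 to 12.98, a difference of -0.03 ± 0.30, and Dnmt1, which maintains methylation, differed by 0.19 ± 0.12. The calls of Dnmt3l and Dnmt3a held in all 6 fits with an array left out. Of 21 germline genes known to be controlled by promoter methylation, 2 fell and 0 rose (all genes: 0.945% and 4.86%). The list median was -0.49, beside -0.03 over all genes. The 2 that fell were Tex19.1 (-1.46 ± 0.36) and Sycp1 (-1.02 ± 0.28). Day 2 replicate 3 had the highest signal of both, at 9.74 and 6.52. Both calls were lost when replicate 3 of day 2 or replicate 1 or 2 of day 3 was omitted, and the list had 6 falls with replicate 3 of day 3 omitted. Of 3 TET genes none was called, with differences of -0.41 to 0.09.

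In the primed epiblast list of 18 genes, 2 rose and 2 fell (all genes: 4.86% and 0.945%), with a median of 0.105. Fgf5 and Car14 (0.89 ± 0.23) rose, and Dnmt3a and Sema6a (-0.53 ± 0.11) fell. Sema6a, a semaphorin, has 2 other probe sets at 0.20 and 0.74, so its direction is not settled. Pou3f1, a POU factor of the primed state, read 10.26, 10.56 and 10.82 at day 2 and 8.47, 8.85 and 10.39 at day 3, low in replicates 1 and 2 and not called (-1.31 ± 0.71, adjusted p = 0.308, limma).

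Genes of the epithelial to mesenchymal transition, by which cells enter the streak, numbered 34, of which 3 rose and 1 fell (all genes: 4.86% and 0.945%), with a median of 0.18. The days did not overlap, with day 3 higher, in 10 of the 34, beside 15.5% of all genes. Cdh1 (E-cadherin) and Epcam, which hold epithelial cells together, differed by 0.12 ± 0.36 and 0.27 ± 0.34, and Snai1, which represses Cdh1, by 0.19 ± 0.25. Besides Cdh11, Twist1 rose (1.03 ± 0.26), and so did Dsp, a gene of epithelial desmosomes (1.73 ± 0.37), while Snai2 fell by 0.71 on the log2 scale (SE 0.21). Cdh2 (N-cadherin) read 6.93, 5.54 and 7.37 at day 2 and 9.28, 9.60 and 7.25 at day 3 and was not called (2.10 ± 0.63, adjusted p = 0.0543, limma). Its replicates 1 and 2 were high at day 3 and its replicate 3 lay within the day 2 range.

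Cell cycle genes changed in 10 of 29 cases, 6 up and 4 down (all genes: 4.86% rose and 0.945% fell). They numbered 1 rise when replicate 2 of day 2 or replicate 1 or 2 of day 3 was omitted, and 0 falls when replicate 2 of day 3 was. Mki67, the proliferation marker, rose by 0.81 ± 0.13, the mitotic cyclin gene Ccnb2 by 0.64 ± 0.16 and the G1 cyclin gene Ccnd2 by 1.01 ± 0.26, with Ccne2 and Cdk6 also up. Ccne1 fell by 0.64 on the log2 scale (SE 0.13). Among the inhibitors Cdkn1b (p27) rose by 1.00 ± 0.28, and Cdkn1c (p57), Cdkn2b (p15) and Gadd45a fell, with differences of -1.14 ± 0.29, -0.84 ± 0.18 and -1.16 ± 0.31. Of 31 genes of cell guidance, Cxcl12, Epha1, Sema5a and Efna5 rose by 1.55, 1.00, 0.97 and 0.87, and 1 fell, Sema6a. The count of rises here was 0 when replicate 3 of day 2 or replicate 1 or 2 of day 3 was omitted. No gene was called among 28 of glycolysis and hypoxia, 15 p53 targets and 25 of the extracellular matrix, with list medians of 0.01, 0.11 and -0.16. Immediate early and heat shock genes gave 1 rise (Klf6) and 1 fall (Hspb1) in 20. The 26 respiratory chain genes gave 2 rises (Ndufs4 and Sdha) and 0 falls, with a median of 0.18. In 13 of the 26 every day 3 array lay above every day 2 array, beside 15.5% of all genes. In 0 of them every day 3 array lay below, beside 11.7%. The shares called as risen in the lists from glycolysis to the respiratory chain are near the 4.86% of all genes.

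The remaining genes with the largest changes belong to no single pathway. Nefl, the light neurofilament gene, rose from 8.21, 7.62 and 7.46 to 10.61, 10.36 and 10.38 (2.69 ± 0.32, adjusted p = 0.000182, limma), with replicate 3 level with the others. Prickle1, a gene of planar cell polarity, rose from 7.53, 7.54 and 6.84 to 9.96, 10.00 and 9.58 (2.54 ± 0.29), but its 2 other probe sets differed by -0.02 and 0.31. Hmga2, a chromatin protein gene of early embryos, rose by 2.18 ± 0.31, the zinc-finger gene Rreb1 by 2.60 ± 0.42, the kinase genes Cdk14 and Prkd1 by 2.29 ± 0.34 and 2.14 ± 0.42 and the metal transporter gene Slc39a8 by 2.19 ± 0.56. The other probe sets of Rreb1, Cdk14 and Slc39a8 differed by 0.22 to 0.68, 0.09 to 0.17 and 0.12.

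Among the falls, Morc1, a gene of germ cells that silences transposons, went from 8.54, 8.02 and 9.91 to 5.69, 6.54 and 7.30 (-2.31 ± 0.59, adjusted p = 0.0258, limma). Epas1, which encodes the hypoxia factor HIF-2 alpha, went from 8.83, 7.73 and 9.75 to 6.03, 6.65 and 7.23 (-2.13 ± 0.52, adjusted p = 0.0194, limma). In both, replicate 3 was the highest on each day. Rex2 (-2.13 ± 0.49), the drug transporter gene Abcb1a (-1.93 ± 0.55), Wt1 (-1.86 ± 0.40), the lysine-degrading enzyme gene Aass (-1.85 ± 0.41), Bnc2, Liph, Arhgef3 and Pla2g10 complete the 15 largest falls, the last 4 between -1.63 and -1.44. Omitting replicate 3 of day 2 or replicate 1 or 2 of day 3 ended the calls of most of the 15 falls, among them Morc1, Epas1 and Nr0b1. In all, 48, 41 and 20 genes fell in these 3 fits, and 105 with replicate 1 of day 2 omitted, instead of 172.

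In most of the genes with the largest rises, the 3 day 3 arrays lay at different distances from the mean of the day 2 arrays. Over the 15 largest rises, the distance of replicate 3 from the day 2 mean was 8.53% to 96.1% of the average distance of replicates 1 and 2, with a median of 59.7%. It was under 50% for 6 genes, Cdh11, Sp5, Gsc, Mixl1, Foxa2 and Prkd1, and highest for Nefl and Prickle1. These values describe genes chosen for their change. Of the 192 genes that rose by over 1, day 3 replicate 3 was the lowest day 3 array in 171, beside 33.5% of all genes, and in 159 it lay within 1 unit of the highest day 2 array. Of the 42 that fell by over 1 it was the highest in 38, beside 32.5% of all genes. Day 2 replicate 3 stood on the same side among the day 2 arrays. It was lowest in 133 of the 192 rises, beside 41.3% of all genes, and highest in 40 of the 42 falls, beside 35.0%. As these genes were called from the same arrays, their choice in part sets such counts, and no conclusion is drawn from them. Without the number 3 arrays of both days, an alternative chosen after seeing the data, Lhx1 (4.56), Cdh2 (3.21), Aplnr (3.17), Cyp26a1 (2.02), Pdgfra (1.86), Bmp2 (1.44) and Dkk1 (1.27) were called as higher, and 536 genes rose and 74 fell in all.

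The arrays with ascorbic acid are no part of the differences above, but they enter the spread per gene and the choice of probe sets. In that arm, day 3 replicate 3 was the lowest in 161 of the 192 genes, beside 35.2% of all genes. It was lowest in both arms for 153. Day 3 replicate 3 with ascorbic acid was the highest in 37 of the 42 genes that fell, beside 29.9% of all genes. Day 2 replicate 3 of this arm was the lowest in 122 of the 192 genes, beside 36.5% of all genes. It was the highest in 28 of the 42, beside 33.2%. Mixl1 with ascorbic acid differed from the day 2 mean by 3.63, 4.11 and 0.31 in replicates 1 to 3, beside 4.17, 4.10 and 0.45 without it. Deviations from the day 3 group mean correlated over all genes at 0.495, 0.459 and 0.679 between arms for equal numbers. For unequal numbers the values were -0.509 to 0.0879. Deviations within a group cancel out, so high values for equal numbers in themselves lower those for unequal ones. What arrays of equal number share is not recorded in the labels, and its part in these results was not tested. Genes are not independent replicates, so these correlations are descriptions.

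**Figure D4:**
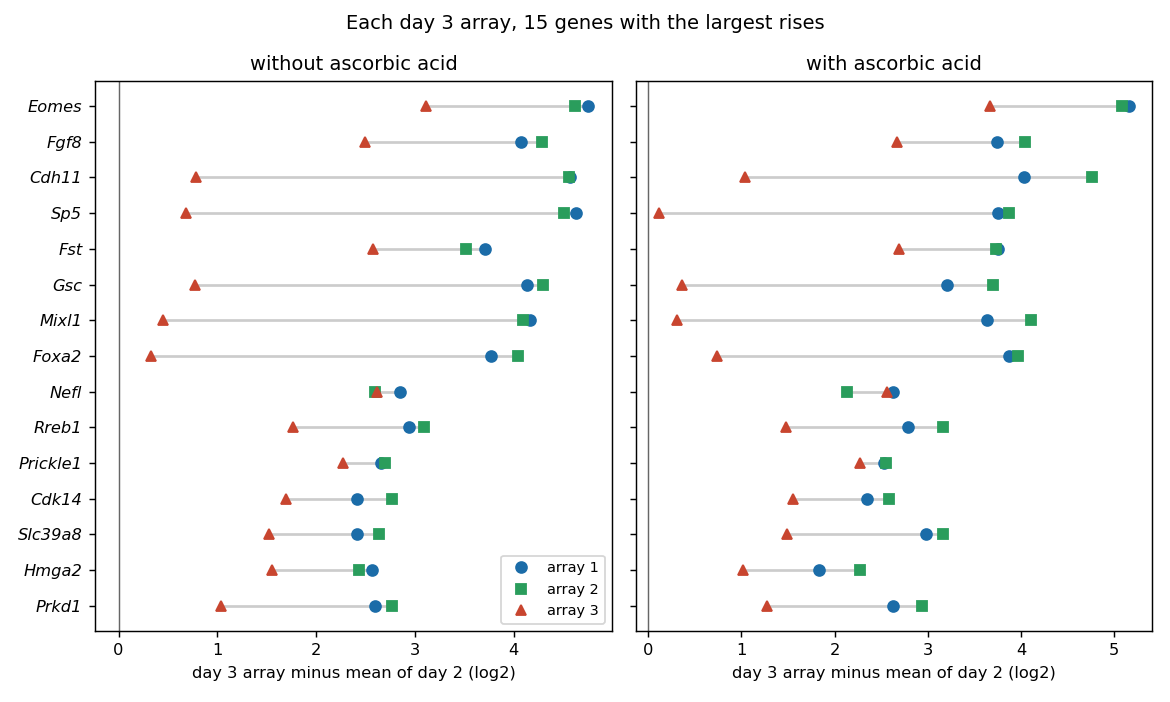
For the 15 genes with the largest rises, the horizontal axis gives each day 3 array minus the mean of the 3 day 2 arrays of its arm (log2), without ascorbic acid at left and with it at right. Replicate 3 (triangle) lies lowest for 14 of 15 genes at left, within 1 unit of 0 for Foxa2, Mixl1, Sp5, Gsc and Cdh11, and level with the others for Nefl.

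Between day 2 and day 3 with ascorbic acid, 620 genes rose (3.41%) and 234 fell (1.29%), 854 in all (4.69%), and 180 (0.989%) rose by over 1. Of the genes that rose without ascorbic acid, 441 also rose with it, 49.8% of the first list and 71.1% of the second, and of those that fell, 78 also fell, 45.3% and 33.3%. Opposite calls numbered 0. The cultures of the 2 arms with equal numbers moved together as described above, so the arms are not independent repeats. Among the 15 largest rises 12 were called with ascorbic acid, and among the 15 largest falls all 15. The exceptions were Sp5, Gsc and Mixl1, with 2.58, 2.42 and 2.68 (adjusted p = 0.0908, 0.0563 and 0.0572, limma). The difference between the arms in the size of the step was called for 0 genes by limma, and 476 genes (2.62%) had an unadjusted p under 0.05. For the 30 genes it was at most 0.88 on the log2 scale, with standard errors of 0.41 to 1.19. Differences of the size of these errors were not detectable in this fit with 3 arrays a group. The fit did not pair arrays of equal number between the arms, so deviations that the arms shared counted in these errors. The 0 calls therefore do not show that the step was equal in both arms. The size was largest for Tex19.1, which differed by -1.46 without and -2.35 with ascorbic acid (unadjusted p = 0.0956, adjusted p = 0.999, limma).

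**Figure D5:**
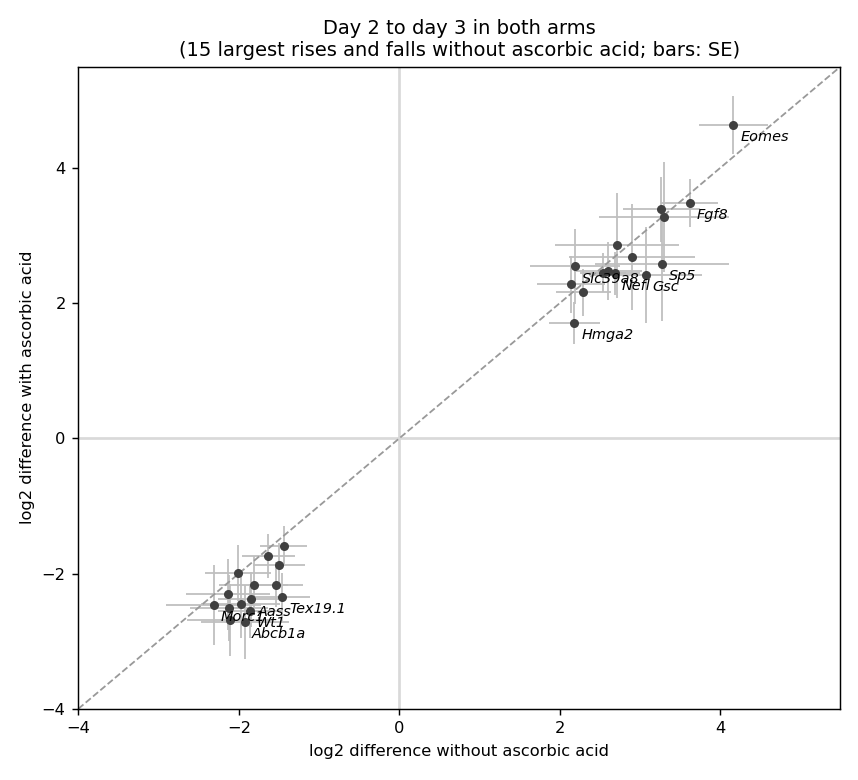
Log2 difference from day 2 to day 3 without ascorbic acid (horizontal axis) and with it (vertical axis) for the 15 largest rises and 15 largest falls without it, with bars of 1 standard error and a dashed line of equal change. Rises lie on both sides of the line, and falls lie on it or below it.

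Set against the neighbouring days without ascorbic acid, several streak genes peaked at day 3 while other genes stood higher still at day 5. Eomes had a mean of 6.72 at day 0, 7.73 at day 2, 11.90 at day 3 and 7.17 at day 5. Sp5 returned to 6.23 and Gsc to 5.13 at day 5. Cdh11 (11.04), Hmga2 (12.52), Prkd1 (9.31) and Slc39a8 (9.90) stood higher at day 5 than at day 3, and Aplnr, not called at day 3, stood at 11.69. Nanog was at 11.48, 9.59, 11.53 and 5.90 on the 4 days. The levels at days 0 and 5 are given as descriptions, and no test of them was made here. Cells of day 0 were also in another medium.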

How the data were processed

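RNA of 21 samples was measured on Affymetrix arrays, and the authors deposited RMA signals on the log2 scale, per the submitters' processing notes (version and array batches not given in the sources used here). No further normalisation was applied. Of 45101 probe sets, 34958 carried 1 gene symbol in the platform annotation, 932 several and 9211 none. The 64 control probe sets were left out, and for each of 18193 genes the probe set of highest average signal was kept. All 7 groups of 3 arrays entered 1 fit of group means with limma 3.58.1 in R 4.3.3, with an intensity trend. Benjamini-Hochberg adjustment ran over all genes, and a gene was called at an adjusted p under 0.05. The fit was tested on simulated data with independent noise on each array, a setting without the deviations that arrays of equal number share here. The number of arrays limits precision.

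The comparison, its members and 31 gene lists were chosen with earlier results of these data known. Genes named were the 15 largest rises and 15 largest falls among called genes with a proper symbol whose days do not overlap, up to 8 called members of each list, cell type markers, and members of the Nodal, Wnt, FGF and BMP lists. Other uncalled list members, such as Aplnr, Cyp26a1, Cdh2, Pou3f1 and Otx2, were chosen after their values were seen. Alternatives were another scaling, other probe set rules, filters and variance settings, array weights, a replicate block and leaving out arrays. Promoters came from RefSeq (GRCm38.p6).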

Additional observations from a re-analysis of the deposited data

How the results depend on the processing

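Leaving out 1 of the 6 arrays gave 238 to 860 genes that rose, 20 to 192 that fell and 258 to 1052 called in all. Leaving out both number 3 arrays, chosen after seeing the data, gave 536 that rose, 74 that fell and 610 called. Array weights moved the counts most, with 2840 rises, 2174 falls and 5014 calls, and 2074 calls for the step with ascorbic acid. Quantile normalisation gave 573 rises, and median centring gave 105 falls. A log2 difference over 1 as a further condition left 234 calls. Sema6a changed direction with the mean of its probe sets (0.14) and with its most variable probe set (0.74), and Ndufs4 with its most variable probe set (-0.35). Both come from other probes of the same gene. For the other results above, the cause was not tested. Of 90 named genes that were called, 62 were still called with the mean of all probe sets, 70 after quantile normalisation, 73 with robust variance estimates, 77 with the 6 arrays alone, and 27 to 79 with 1 array left out. The difference between arms was called for 0 genes under every alternative run.

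Between day 2 and day 3, deviations of equal replicate numbers correlated at -0.0198, 0.0323 and 0.218, and those of unequal ones at -0.2055 to 0.2202. Numbers 1 and 2 did not pair, while number 3 of either day correlated highest with number 3 of the other. The replicate block gave 1214 rises, 290 falls and 1504 calls, and 1239 calls with ascorbic acid, and all 90 named genes were still called with it.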
